A study of Mus musculus with 53 samples.

Results

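The genes described here are 10 Wnt-pathway genes that are known negative feedback genes or direct targets of Wnt signalling, Notum, Wif1, Dkk2, Apcdd1, Rnf43, Znrf3, Axin2, Nkd1, Sp5 and Tcf7. They were chosen by name from the 55421 genes of a table of RNA-seq read counts, and all 10 were found in it. The table covers whole tissue of the mouse intestine in 53 libraries and 11 groups, and each mutant group was set against its own WT group. All mice, WT included, carried VilCreER, a tamoxifen-inducible Cre recombinase that is active in the intestinal epithelium, so that the floxed and activatable alleles were changed in epithelial cells only while the RNA came from all cells of the tissue. Mice were induced with tamoxifen as young adults.

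In the small intestine, Apcfl/fl mice (deletion of both Apc alleles, n = 10) were compared with WT mice (n = 6) at day 4 after induction, and tumours of Apcfl/+ mice (deletion of a single allele, n = 5) with WT small intestine (n = 3). In the proximal colon, primary tumours of BA mice (n = 4), which combine the BrafV600E/+ allele with homozygous deletion of Alk5, the TGFβ receptor gene Tgfbr1, were compared with WT proximal colon (n = 3). Proximal colon at day 30 after induction came from untreated BA mice (n = 5), from BA mice given antibiotics in drinking water (ampicillin 1 g/L, neomycin trisulphate 1 g/L, vancomycin 500 mg/L and metronidazole 1 g/L, n = 5), from A mice (Alk5fl/fl without mutant Braf, n = 4), from A mice given sulindac at 0.4 g/L for 14 days from the first day after tamoxifen (n = 4) and from WT mice (n = 4). The Apcfl/+ tumours and their WT tissue are labelled as an inbred C57BL/6J background and all other groups as a mixed one. Each tumour group therefore differs from its WT tissue in being a dissected tumour as well as in genotype. The labels give each library as a separate sample of its group, and p-values measure the spread between these samples.

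Canonical Wnt signalling acts through β-catenin, which a destruction complex built on APC and AXIN proteins marks for degradation until a Wnt ligand engages Frizzled and LRP receptors. Stabilised β-catenin binds TCF and LEF factors and activates transcription, and part of what it activates holds the pathway back. In the intestinal crypt this loop shapes the stem cell zone, and loss of APC bypasses those feedback proteins that act at the ligand and the receptor, upstream of the destruction complex.

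TCF and LEF factors bind a core that is written CTTTGA or TCAAAG, depending on the strand. The 250 bases before the start site, as given by RefSeq on GRCm38.p6, were searched on both strands in the 9 windows found for 7 of the 10 genes. The windows of Sp5 and Axin2 are printed because Sp5 was the sole member whose window held the core and Axin2 is the most widely used target gene of the set. Capitals in the Sp5 sequence mark CTTTGA at 204 bases, CTTTGAT (which contains CTTTGA) at 104 bases and AACAAAG, the reverse of CTTTGTT, at 222 bases before the start.
Sp5, chr2:70474673-70474922, plus strand: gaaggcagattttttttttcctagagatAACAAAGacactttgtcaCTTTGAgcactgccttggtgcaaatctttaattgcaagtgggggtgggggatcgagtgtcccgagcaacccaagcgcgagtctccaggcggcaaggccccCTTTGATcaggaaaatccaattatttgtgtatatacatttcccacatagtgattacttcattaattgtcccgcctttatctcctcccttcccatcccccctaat
Axin2, chr11:108920099-108920348, plus strand: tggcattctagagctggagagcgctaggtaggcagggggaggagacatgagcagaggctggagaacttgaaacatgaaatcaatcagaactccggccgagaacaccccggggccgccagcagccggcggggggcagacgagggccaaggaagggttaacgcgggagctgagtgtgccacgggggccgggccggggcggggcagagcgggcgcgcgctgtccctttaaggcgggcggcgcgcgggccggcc
Among all 32851 windows of this length, 13.8% held CTTTGA and 1.37% held it at 2 or more places. Of the longer forms searched, CTTTGAA was found in 4.46% of windows, CTTTGAT in 3.21%, CTTTGTA in 3.2% and CTTTGTT in 5.03%. G and C made up 46% of the Sp5 window and 69.2% of the Axin2 window, against a median of 52.4% over all windows. A match describes letters in this window and does not show binding.

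In the GRCm38 annotation of GENCODE M21, 5 of the 10 genes lie on chromosome 11, which holds 7.44% of the protein-coding genes of the table. These are Axin2 (108920349 to 108950783, plus strand), Rnf43 (87662722 to 87735539, plus), Znrf3 (5276324 to 5444847, minus), Tcf7 (52252371 to 52283014, minus) and Notum (120653788 to 120661175, minus). Nkd1 lies on chromosome 8 (88521354 to 88594884, plus), Sp5 on chromosome 2 (70474923 to 70477729, plus), Wif1 on chromosome 10 (121033960 to 121100650, plus), Dkk2 on chromosome 3 (132085292 to 132180304, plus) and Apcdd1 on chromosome 18 (plus). Exons of Notum overlap 708 bases of the antisense gene Notumos, to which 2892 reads were assigned over all libraries against 24438 for Notum, and without the strand setting of the counting, reads of that stretch cannot be told apart.

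The libraries held between 516985 and 32824795 reads on genes (median 18356939). The shallowest, Apcfl/fl 1, is the exception in its group, and 3 reads there correspond to 5.80 CPM (counts scaled to the total reads of the library). Reads on Apc, summed over the whole gene, ranged from 34.2 to 174 CPM in Apcfl/fl and from 64.0 to 97.3 CPM in their WT, and Tgfbr1 from 33.4 to 63.5 CPM in A and from 35.2 to 68.2 CPM in WT at day 30. Counts over a whole gene therefore did not show the deletions in Apcfl/fl and A. In Apcfl/+ tumours Apc ran from 138 to 178 CPM, against 184 to 212 CPM in their WT, and was called lower (log2 -0.34, adjusted p = 0.0114). Reads on the pseudogene Gm13394 and on the Y-linked gene Ddx3y split libraries in a way the labels do not name. More than 10 CPM of Gm13394 was found in 6 of 10 Apcfl/fl and 3 of 6 WT libraries at day 4, in 0 of 5 Apcfl/+ tumours and 3 of 3 of their WT, in 3 of 4 BA tumours and 0 of 3 of their WT, and in all A and BA libraries but 0 of 4 WT libraries at day 30. In the last of these the split cannot be told apart from genotype. Ddx3y exceeded 10 CPM in 1 of 5 Apcfl/+ tumours and 3 of 3 of their WT, and in 3 of 4 BA tumours and 0 of 3 of their WT. As a Y-linked gene it is read in male tissue, so the sex of the mice may differ between tumours and WT in both comparisons. The term for Ddx3y used below stands for this split.

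Levels are given as normalised CPM, scaled by TMM over all libraries, and as RPKM, which also divides by exon length, where genes are compared with each other. Per length, Sp5 and Axin2 led in WT small intestine at day 4, with median RPKM values of 12.5 and 12.4, and Axin2 led in the other WT small intestine at 10.8 RPKM. In WT proximal colon Axin2 and Nkd1 had the highest medians, at 5.51 and 4.73 RPKM, and at day 30 Nkd1 and Rnf43, at 4.80 and 4.17 RPKM. Notum had the lowest median RPKM of the 10 genes in all 4 WT groups, from 0.0981 at day 30 to 0.177 in proximal colon.

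**Figure D1:**
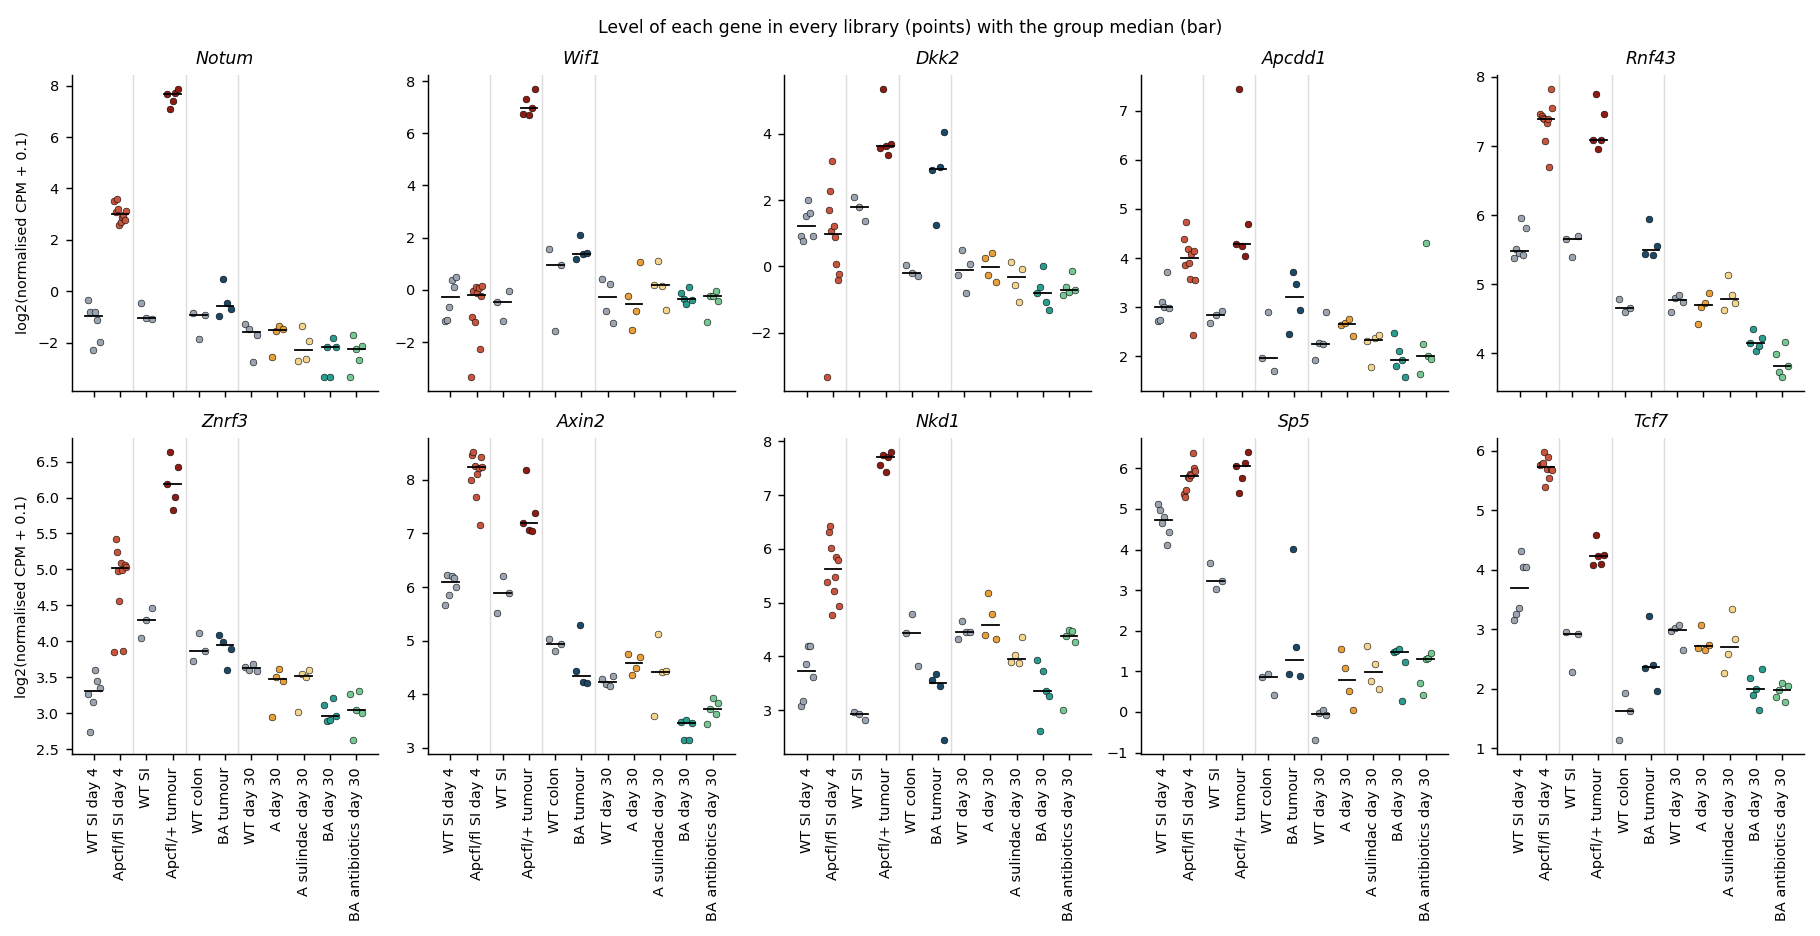
Level of each gene in every library as log2 of normalised CPM plus an offset of 0.1 (y axis, with its own range in each panel), by group (x axis). Points are libraries, bars are group medians and grey points are WT. Notum and Wif1 stand far above every other group in the 5 Apcfl/+ tumours, Tcf7 is highest in Apcfl/fl tissue, and Axin2, Rnf43 and Znrf3 are lowest in BA colon at day 30 or with antibiotics.

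Acute loss of Apc raised 8 of the 10 genes in the small intestine within 4 days, and 0 fell. Among all 17536 genes tested, 27.5% were called higher and 26.7% lower. The median log2 fold change of the 10 genes was 1.72, against -0.0004 over all genes tested. Members of every role rose, with Wif1 and Dkk2, both secreted inhibitors, as the exceptions.

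Notum, a secreted enzyme that strips the lipid from Wnt ligands, had a lowest level of 5.93, a median of 8.04 and a highest level of 11.8 normalised CPM in Apcfl/fl tissue. In WT it ran from 0.106 through a median of 0.416 to 0.684 normalised CPM, 2 to 14 reads per library. The groups did not overlap, and Notum rose 21.2-fold (log2 4.41, SE 0.32, adjusted p = 6.65e-08). It passed the low-count filter through its level in Apcfl/fl tissue, so the size of the rise rests on few WT reads. With no such filter the log2 fold change was 4.39. Wif1, which binds Wnt ligands outside the cell, ranged from 0 to 0.993 normalised CPM in Apcfl/fl and from 0.342 to 1.32 in WT, with a log2 fold change of -0.12 (95% confidence interval -0.92 to 0.68). The value of 0 is that of the shallowest library, in which no level under 5.80 CPM could be excluded by a count of 0. Dkk2, which binds the LRP co-receptors, ranged from 0 to 8.88 normalised CPM against 1.59 to 3.89 in WT, with a log2 fold change of 0.16 (-0.87 to 1.20).

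Apcdd1, a membrane protein that binds Wnt and LRP proteins, had a median of 15.9 normalised CPM in Apcfl/fl (5.34 to 26.7) and of 7.88 in WT (6.45 to 13.03). The groups overlapped, and Apcdd1 rose 1.87-fold (log2 0.90, SE 0.25, adjusted p = 0.0061). Within the libraries with over 10 CPM of Gm13394 its log2 fold change was 0.43 (adjusted p = 0.342), and within the others it was 1.52. Rnf43 and Znrf3 encode transmembrane ubiquitin ligases that remove Frizzled receptors from the cell surface. Rnf43 ran from 103 through a median of 168 to 227 normalised CPM against 41.5, 44.5 and 62.2 in WT. Znrf3 ran from 14.3 through 32.2 to 42.8 normalised CPM against 6.54, 9.81 and 12.1. Neither overlapped its WT range, and they rose 3.48-fold and 3.14-fold (log2 1.80, SE 0.15, and 1.65, SE 0.20).

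Axin2, a scaffold of the destruction complex, ran from 144 through a median of 301 to 366 normalised CPM against 50.4, 68.2 and 74.5 in WT. It rose 4.41-fold (log2 2.14, SE 0.17, adjusted p = 1.53e-07). Nkd1, which binds Dishevelled, ran from 27.2 through 49.9 to 86.3 normalised CPM against 8.30, 13.3 and 18.3, and rose 4.01-fold (log2 2.00, SE 0.28). Every Apcfl/fl library lay above every WT library for both genes. Within libraries over 10 CPM of Gm13394 and within the others, the log2 fold change was 1.39 and 2.82 for Nkd1, 1.89 and 2.48 for Axin2, 1.6 and 2.04 for Rnf43, 1.35 and 2.11 for Znrf3, and 4.39 and 4.54 for Notum. A difference between these libraries was not tested.

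Among the transcription factors, Sp5, a zinc-finger factor induced by Wnt signals, ran from 39.0 through 55.9 to 82.6 normalised CPM against 17.3, 26.3 and 34.6 in WT and rose 2.19-fold (log2 1.13, SE 0.18). Tcf7, which encodes TCF1, ran from 42.1 through 52.9 to 62.7 normalised CPM against 8.79, 13.2 and 19.8 and rose 3.98-fold (log2 1.99, SE 0.18, adjusted p = 4.22e-07). Neither overlapped WT. Within libraries over 10 CPM of Gm13394 and within the others, the log2 fold change was 1.51 and 0.63 for Sp5 and 1.52 and 2.65 for Tcf7, so that Sp5 had the larger value in the former and Tcf7 in the latter. Tcf7 is also a T cell gene. The summed CPM of 12 T cell markers ran from 37.0 to 66.4 in Apcfl/fl and from 83.6 to 140.0 in WT, and 10 of the 12 fell. Tcf7 thus moved against this list, and the part of T cells in its level was not tested. The 8 members called were also called with a term for Gm13394, and the count was 8 without the shallowest library and the library with the lowest Apc.

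In Apcfl/+ tumours all 10 genes rose over WT small intestine. For each of them the lowest tumour lay above the highest WT library, and the share of all genes with such a separation is not given here. Of 20567 genes tested, 31.4% were called higher, and 6189 genes lower. The median log2 fold change was 2.64 for the 10 genes and 0.03 for all genes tested. The secreted inhibitors Notum and Wif1 showed the largest fold changes of the set.

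Notum reached 204, 135, 171, 210 and 235 normalised CPM in the 5 tumours, against 0.619, 0.391 and 0.378 (7 to 12 reads) in WT. It rose 436-fold (log2 8.77, SE 0.31, adjusted p = 3.64e-06). Wif1 stood at 107, 159, 103, 124 and 208 normalised CPM against 0.619, 0.335 and 0.864 (6 to 16 reads), and rose 245-fold (log2 7.94, SE 0.41, adjusted p = 9.06e-06). Both genes were near the detection limit in every WT library and above 100 normalised CPM in every tumour. They passed the low-count filter through the tumours, so the size of both rises rests on few WT reads. With no such filter the log2 fold changes were 8.83 for Notum and 8.00 for Wif1. Dkk2 stood at 11.9, 40.7, 12.3, 10.2 and 12.8 normalised CPM against 4.13, 3.35 and 2.48, and rose 5.66-fold (log2 2.50, SE 0.53, adjusted p = 0.00342). With a term for Ddx3y its log2 fold change was 1.95 (adjusted p = 0.0643).

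Apcdd1 stood at 19.5, 174, 18.8, 16.4 and 25.9 normalised CPM in the tumours against 6.29, 7.09 and 7.51 in WT. Tumour 2 was far above the other tumours for this gene. Apcdd1 rose 7.80-fold (log2 2.96, SE 0.93, adjusted p = 0.0217), and without tumour 2 the log2 fold change was 1.64. The call was lost with limma and voom (adjusted p = 0.0704), with a term for Ddx3y (log2 1.6, adjusted p = 0.311) and without any single WT library (0.0647 to 0.0721). The summed CPM of 10 fibroblast markers was 3355 to 5000 in the tumours, with tumour 2 the highest, and 1305 to 1653 in WT, and 9 of the 10 rose. The part of these cells in the levels of Dkk2 and Apcdd1 was not tested, and in bulk tissue a change in the share of a cell type and a change in RNA per cell cannot be told apart.

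Rnf43 stood at 136, 215, 124, 136 and 177 normalised CPM against 50.4, 41.8 and 51.7, a 3.52-fold rise (log2 1.82, SE 0.20). Znrf3 stood at 72.7, 98.9, 56.9, 64.0 and 85.6 normalised CPM against 16.4, 19.6 and 22.0, a 4.19-fold rise (log2 2.07, SE 0.20). Both ligases were thus raised to a similar degree and without overlap. Axin2 stood at 146, 290, 134, 132 and 166 normalised CPM against 45.4, 74.0 and 59.3 and rose 3.12-fold (log2 1.64, SE 0.30, adjusted p = 0.00163). Nkd1 stood at 189, 214, 171, 210 and 222 normalised CPM against 7.73, 7.53 and 6.91, and rose 29.2-fold (log2 4.87, SE 0.13, adjusted p = 1.13e-06). The spread of Nkd1 was small on both sides. Sp5 stood at 66.9, 42.1, 54.6, 69.9 and 84.0 normalised CPM against 12.5, 8.09 and 9.23 and rose 6.86-fold (log2 2.78, SE 0.26). Tcf7 stood at 16.8, 23.8, 18.6, 16.9 and 18.9 normalised CPM against 7.68, 4.74 and 7.45 and rose 3.07-fold (log2 1.62, SE 0.20).

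The tumours and the acute deletion were then compared by testing the difference between their log2 fold changes. The mice's background, the time after induction and the tumour itself differ between the 2 comparisons and are part of this difference. In all, 6 of the 10 genes were called, each with the larger effect in tumours, against 12.4% of 22202 genes called with a positive and 12.3% with a negative difference. The effect in tumours exceeded the acute effect by 4.36 for Notum (SE 0.45, adjusted p = 1.5e-06), 7.94 for Wif1 (SE 0.60, adjusted p = 2.41e-08), 2.82 for Nkd1 (SE 0.40) and 1.63 for Sp5 (SE 0.32) on the log2 scale. Wif1 was at log2 7.94 in tumours and at -0.12 after acute deletion. For Sp5 the 2 WT groups differed, with medians of 9.23 normalised CPM beside the tumours and 26.3 at day 4. Its medians in tumours and in Apcfl/fl tissue were 66.9 and 55.9 normalised CPM, so the unlike WT levels are part of its difference. The calls for Dkk2 (2.28, adjusted p = 0.0421) and Apcdd1 (2.02, adjusted p = 0.0423) were lost with RLE scaling (adjusted p = 0.051 and 0.0571), with no low-count filter (0.0522 and 0.0579) and without any of several single libraries, that for Apcdd1 also with voom (0.171), and without tumour 2 the differences were 1.71 (adjusted p = 0.097) and 0.69 (adjusted p = 0.194). For Rnf43 the difference was -0.01 (95% confidence interval -0.50 to 0.47), for Znrf3 0.37 (-0.28 to 1.01), for Axin2 -0.53 (-1.18 to 0.11) and for Tcf7 -0.41 (-0.95 to 0.13), none of which was called. Without tumour 2 the difference for Axin2 was -0.79 and was called (adjusted p = 0.0345).

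**Figure D2:**
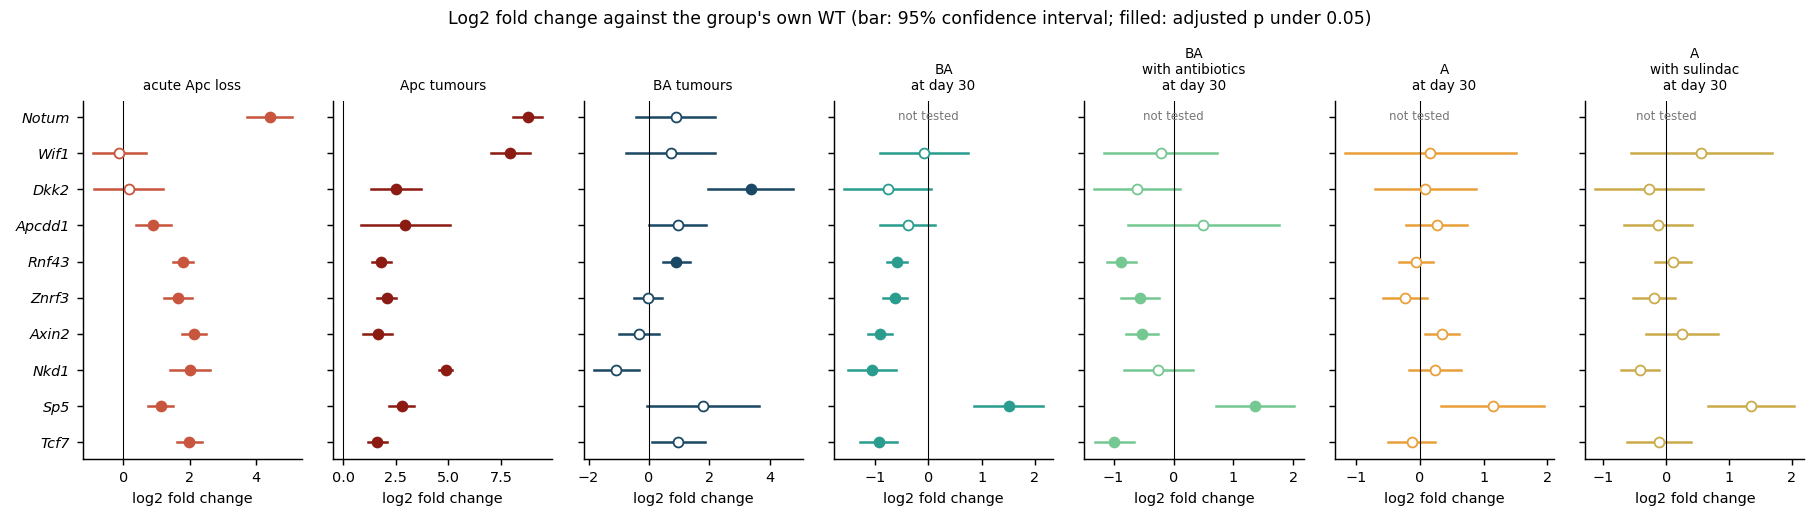
Log2 fold change of each gene (x axis, with its own range in each panel) against the group's own WT in 7 comparisons. Points are estimates, bars 95% confidence intervals, and filled points have an adjusted p under 0.05. All 10 points are filled and above 0 for Apc tumours, 8 for acute Apc loss and 2 for BA tumours, while 5 are filled and below 0 for BA at day 30.

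In BA tumours 2 of the 10 genes were called higher than in WT proximal colon and 0 lower. Of 19188 genes tested, 7.46% were called higher and 5.71% lower. The genes called were Dkk2 and Rnf43. An unadjusted p under 0.05 was found for 5 of the 10 and for 5420 of all 19188 genes tested. The median log2 fold change was 0.89 against 0.03 for all genes tested.

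Dkk2 stood at 7.41, 2.26, 7.82 and 16.3 normalised CPM in the BA tumours against 0.937, 0.765 and 0.711 in WT colon, with no overlap. It rose 10.3-fold (log2 3.36, SE 0.62, adjusted p = 0.00996). Summed fibroblast markers ran from 4800 to 6596 CPM in the tumours and from 2006 to 2673 CPM in WT, and 5 of the 10 markers rose. BA tumour 2 had the lowest marker sum and the lowest Dkk2 of the 4. The part of fibroblasts in the Dkk2 level was not tested. Rnf43 stood at 43.4, 61.4, 42.8 and 46.9 normalised CPM against 27.5, 24.1 and 25.3 and rose 1.87-fold (log2 0.90, SE 0.20, adjusted p = 0.0206). With a term for Ddx3y the log2 fold change was 3.08 for Dkk2 (adjusted p = 0.102) and 0.66 for Rnf43 (adjusted p = 0.225). Without WT colon library 1 neither gene was called (0.0555 and 0.0792), and Rnf43 also lost its call without either of the other WT libraries (0.0703 and 0.0746) or without BA tumour 4 (0.05).

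Notum and Wif1, which had the largest fold changes in Apc tumours, were not called in BA tumours. Notum stood at 0.406, 1.29, 0.623 and 0.527 normalised CPM (9 to 13 reads) against 0.452, 0.176 and 0.426, with a log2 fold change of 0.88 (95% confidence interval -0.42 to 2.18). Wif1 stood at 2.17, 4.20, 2.49 and 2.55 normalised CPM against 2.88, 0.235 and 1.85, with a log2 fold change of 0.72 (-0.76 to 2.20). Both overlapped WT. Znrf3 stood at 16.9, 15.8, 12.1 and 14.7 normalised CPM against 13.1, 17.3 and 14.4, and its interval of -0.48 to 0.43 on the log2 scale lies well below the effect seen after Apc loss.

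Axin2 stood at 21.4, 39.0, 18.7 and 18.4 normalised CPM in BA tumours against 32.7, 28.0 and 30.36 in WT colon. Tumours 1, 3 and 4 lay below WT and tumour 2 above it, and the log2 fold change was -0.34 (95% confidence interval -0.99 to 0.32). Without tumour 2 it was -0.69 and was called (adjusted p = 0.0189). Nkd1 stood at 11.7, 12.6, 10.8 and 5.35 normalised CPM against 21.6, 27.6 and 14.1, so that all tumours lay below all WT libraries. Its log2 fold change of -1.08 (SE 0.34) missed the threshold (adjusted p = 0.0658), which it passed with DESeq2 (0.0269), with no low-count filter (0.0175) and without tumour 2 (0.041). Sp5 stood at 1.81, 15.9, 2.95 and 1.74 normalised CPM against 1.71, 1.82 and 1.23. Tumour 2 again stood apart, and the log2 fold change of 1.78 (SE 0.83) was 0.40 without it. Tcf7 stood at 4.97, 9.26, 5.16 and 3.81 normalised CPM against 2.1, 3.71 and 2.98, log2 0.97 above them (adjusted p = 0.142). The 4 tumours lay above WT for Tcf7, while the summed T cell markers ran from 31.4 to 60.9 CPM in tumours and from 20.2 to 27.6 CPM in WT, with 4 of the 12 higher. The part of T cells in the Tcf7 level was not tested. Apcdd1 stood at 5.42, 13.03, 11.1 and 7.54 normalised CPM against 3.78, 7.35 and 3.17, an estimate of log2 0.95 (adjusted p = 0.176). BA tumour 2 had the highest level of the 4 for Axin2, Sp5, Tcf7, Rnf43, Notum, Wif1, Nkd1 and Apcdd1, and mitochondrial genes took 11.7% of its reads, the highest share in its group.

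A test of the difference between the Apc tumour effect and the BA tumour effect called 6 of the 10 genes, all with the larger effect in Apc tumours, beside 17.7% of 21668 genes with a positive and 21.9% with a negative difference. Tissue, mouse background and the Gm13394 and Ddx3y splits differ between the comparisons and are part of the difference. It was 7.96 for Notum (SE 0.58, adjusted p = 2.27e-06), 7.25 for Wif1 (SE 0.76, adjusted p = 3.53e-05) and 5.92 for Nkd1 (SE 0.38, adjusted p = 8.13e-07) on the log2 scale. Smaller differences were found for Znrf3 (2.06, SE 0.27), Axin2 (1.96, SE 0.43) and Rnf43 (0.89, SE 0.27). Sp5 (1.03, 95% confidence interval -0.78 to 2.84), Dkk2 (-0.89, -2.58 to 0.80), Apcdd1 (2.00, -0.18 to 4.19) and Tcf7 (0.63, -0.23 to 1.49) were not called. Without BA tumour 2 the differences for Sp5 (2.43, adjusted p = 0.000565) and Tcf7 (1.02, adjusted p = 0.0188) were called as well. Scaled by epithelial markers, the calls for Axin2 (1.61, adjusted p = 0.0866) and Rnf43 (0.55, adjusted p = 0.445) were lost. That scaling moved the median of all genes to -0.45, with 901 of 21668 genes called with a positive and 4190 with a negative difference.

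**Figure D3:**
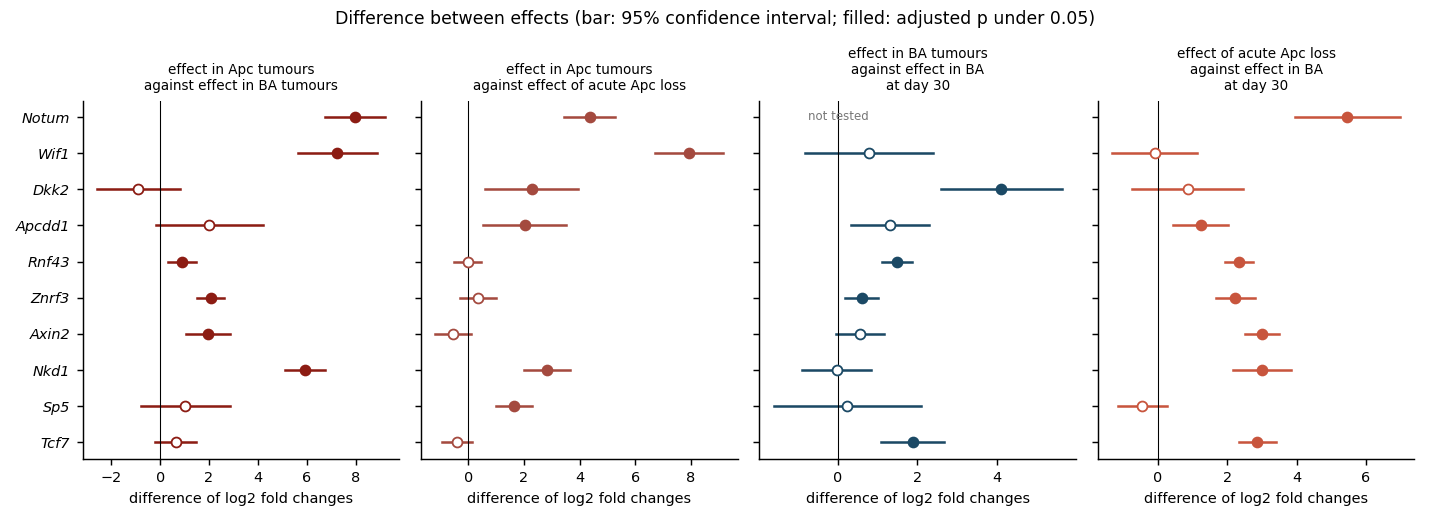
Difference between the log2 fold changes of 2 comparisons (x axis) for each gene (y axis), tested in edgeR. Bars are 95% confidence intervals and filled points have an adjusted p under 0.05. In the panel of Apc tumours against BA tumours Notum, Wif1 and Nkd1 lie at 7.96, 7.25 and 5.92, far from the other genes, and in that of acute Apc loss against BA at day 30 7 points are filled and lie to the right of 0, among them Notum, which was too low to be tested in BA at day 30.

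In BA colon at day 30, 5 genes of the set fell and 1 rose against WT colon of the same day. Of 17471 genes tested, 25.8% were called higher and 29.3% lower. The genes that fell were Axin2, Nkd1, Rnf43, Znrf3 and Tcf7, the gene that rose was Sp5, and the median of the 9 genes tested was -0.62 against -0.03 for all genes. Notum was not tested, since its libraries held 0 to 6 reads in every day-30 group. The 3 reads of the detection floor correspond to 0.161 to 0.226 CPM in BA and 0.141 to 0.163 CPM in WT.

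Axin2 stood at 11, 8.75, 11.3, 8.73 and 10.96 normalised CPM in BA and at 19.3, 18.2, 17.8 and 20.2 in WT. It fell by 0.91 on the log2 scale (SE 0.10, adjusted p = 2.9e-05). Nkd1 stood at 15.3, 6.04, 13.2, 10.2 and 9.51 normalised CPM against 19.98, 25.3, 21.9 and 21.8 and fell by 1.05 (SE 0.21, adjusted p = 0.00135). Both intracellular inhibitors were lower in each BA library than in each WT library. The ligases fell less, with Rnf43 at 17.7, 20.3, 16.3, 17.2 and 18.6 normalised CPM against 24.1, 27.8, 28.8 and 26.8 (log2 -0.59, SE 0.08). Znrf3 stood at 8.57, 7.33, 7.38, 9.16 and 7.69 normalised CPM against 12.4, 12, 12.8 and 11.9 (log2 -0.62, SE 0.10). Tcf7 stood at 4.45, 3.64, 3.90, 3.03 and 4.91 normalised CPM against 7.70, 7.97, 8.32 and 6.16 and fell by 0.93 (SE 0.16, adjusted p = 0.000512). None of these groups overlapped. The summed T cell markers ran from 14.8 to 19.1 CPM in BA and from 23.8 to 37.0 CPM in WT, and 5 of the 12 fell, so Tcf7 moved with this list, and the part of T cells was not tested.

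Sp5 went the other way. It stood at 2.70, 2.71, 2.82, 1.11 and 2.24 normalised CPM in BA and at 0.520, 0.891, 0.940 and 0.843 in WT, and rose 2.84-fold without overlap (log2 1.5, SE 0.30, adjusted p = 0.0013). These are low levels, with medians of 2.70 and 0.867 normalised CPM. Wif1 (log2 -0.08, 95% confidence interval -0.91 to 0.75), Dkk2 (-0.76, -1.58 to 0.06) and Apcdd1 (-0.39, -0.90 to 0.12) overlapped WT and were not called. Without WT library 3 Dkk2 was called (-0.97, adjusted p = 0.0438).

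The tissue makeup differed between these groups. The summed CPM of 10 epithelial markers ran from 20143 to 23602 in BA and from 11114 to 13456 in WT, and 9 of the 10 rose, while 6 of 8 smooth muscle and 7 of 10 fibroblast markers fell. Scaling by the epithelial markers moved the median of all genes by -1.07. Of the 9 members tested, 8 were then lower and 0 higher, beside 15530 of all 17471 genes lower and 425 higher. This count is close to the share of all genes and is not read as a result about the members. Scaled in this way, Sp5 was at 0.45 (adjusted p = 0.133). Subtracting the shift gave -0.89 for Axin2 and 1.53 for Sp5. This subtraction largely undoes the scaling, so that closeness to the values above follows from the calculation and is no separate support. How much of each change came with the makeup of the tissue was not tested.

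With antibiotics, 4 genes fell and 1 rose in BA colon against the same WT libraries, so that the 2 comparisons are not independent. Of 17569 genes tested, 21.8% were called higher and 17.8% lower. Axin2 stood at 10.8, 13.03, 15.0, 12.2 and 14.2 normalised CPM (log2 -0.52, SE 0.12, adjusted p = 0.00642), Rnf43 at 15.7, 13.2, 12.6, 17.8 and 14.1 (log2 -0.87, SE 0.11), Znrf3 at 9.54, 6.07, 8.14, 9.80 and 7.92 (log2 -0.56, SE 0.14) and Tcf7 at 3.55, 3.82, 4.18, 3.34 and 4.02 (log2 -0.99, SE 0.15). All were below WT in every library. Sp5 stood at 1.55, 1.23, 2.39, 2.42 and 2.62 normalised CPM and rose 2.56-fold (log2 1.36, SE 0.29, adjusted p = 0.00431). Scaled by epithelial markers, 7 members were lower and 0 higher, beside 15043 of all 17569 genes lower and 373 higher. Sp5 was then at 0.30 (adjusted p = 0.435), against a shift of -1.08 in the median of all genes. Nkd1 stood at 7.93, 20.7, 22.5, 22.1 and 19.2 normalised CPM, and its log2 fold change was -0.25 (95% confidence interval -0.83 to 0.32). Library 1 was low and the other 4 lay within or close to the WT range.

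Set directly against untreated BA, antibiotics gave 0 called genes among the 8 tested, with 3 at an unadjusted p under 0.05, beside 4.53% of 16680 genes called higher and 8.5% lower. Of all 16680 genes, 5141 had an unadjusted p under 0.05. DESeq2 called 3 of the 8 members, beside 1169 of all genes higher and 1802 lower, and limma with voom called 0 members. The 3 with an unadjusted p under 0.05 were Nkd1 (log2 0.79, 95% confidence interval 0.12 to 1.45, adjusted p = 0.107), Axin2 (0.38, 0.09 to 0.66, adjusted p = 0.0795) and Rnf43 (-0.29, -0.51 to -0.07, adjusted p = 0.0782). Without the library of lowest Nkd1, Nkd1 (0.98, adjusted p = 0.0177) and Axin2 (0.44, adjusted p = 0.0393) were called, and without antibiotic library 4 so was Rnf43 (-0.37, adjusted p = 0.0318). Notum and Dkk2 were too low to be tested. Fibroblast markers summed to 9231 CPM in antibiotic library 3 and to 1250 to 1909 in the other 4, and this library had the highest Apcdd1, 19.6 normalised CPM, against 3.03, 4.64, 3.92 and 3.77, while its Dkk2, 0.488, was not high.

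**Figure D4:**
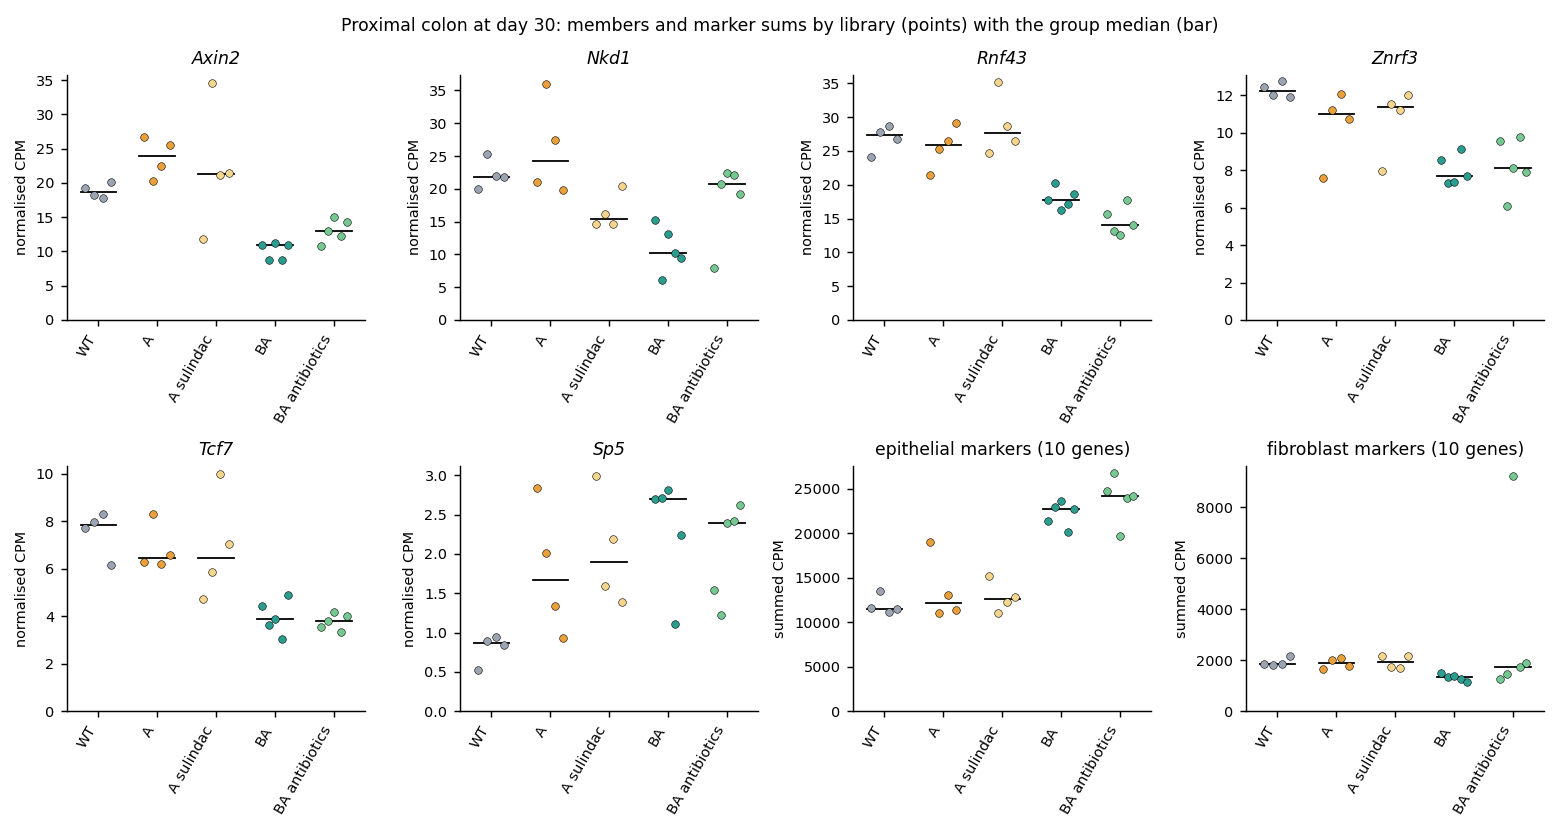
Normalised CPM (y axis, from 0) of 6 of the genes in the proximal colon at day 30, with the summed CPM of the epithelial and fibroblast markers. Points are libraries and bars are group medians. Axin2, Rnf43, Znrf3 and Tcf7 lie below WT in all BA libraries, with and without antibiotics, and Sp5 lies above it, while the epithelial markers are higher in all BA libraries than in WT.

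Deletion of Alk5 alone, with or without sulindac, gave 0 called genes among the 9 tested. In A colon 0.096% of 17713 genes were called higher and 0.0452% lower, and DESeq2 and voom called 0 members. Of all genes 1717 had an unadjusted p under 0.05, and of the 9 members 2 did. These were Sp5, at 2.84, 2.01, 1.33 and 0.935 normalised CPM (log2 1.14, 95% confidence interval 0.34 to 1.95, adjusted p = 0.465), and Axin2, at 26.7, 20.3, 22.4 and 25.6 normalised CPM (0.34, 0.08 to 0.61, adjusted p = 0.48). Axin2 lay above WT in all 4 libraries, on the other side from BA. With sulindac 0.0507% of 17742 genes were called higher and 0% lower. An unadjusted p under 0.05 was found for 1607 of all genes and again for 2 members. Sp5 stood at 3.00, 1.598, 2.19 and 1.39 normalised CPM (log2 1.35, 0.67 to 2.04, adjusted p = 0.322), above WT in every library, and was the single gene that DESeq2 called (adjusted p = 0.047), whereas voom called 0. Nkd1 stood at 14.7, 16.1, 14.7 and 20.5 normalised CPM (-0.42, -0.73 to -0.12, adjusted p = 0.459).

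Against untreated A, sulindac gave 0 called genes among the 9 tested, with 0% of 17568 genes called higher and 0% lower, and 460 of all genes at an unadjusted p under 0.05. Nkd1 was the single member among them, with a log2 difference of -0.65 (95% confidence interval -1.12 to -0.18, adjusted p = 1). DESeq2 and voom called 0 members.

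BA was also set against A at day 30, so that mutant Braf is the labelled difference and every library of both groups exceeds 10 CPM of Gm13394. The level of Gm13394 was not the same, at 93.3 to 222 CPM in BA and 114 to 138 CPM in A. In this comparison 5 genes fell and 0 rose, beside 21.7% of 17128 genes called higher and 23.6% lower. Axin2 fell by 1.21 on the log2 scale (SE 0.13, adjusted p = 3.08e-05), Nkd1 by 1.25 (SE 0.25, adjusted p = 0.00222), Tcf7 by 0.77 (SE 0.17), Rnf43 by 0.49 (SE 0.12) and Apcdd1 by 0.62 (SE 0.19, adjusted p = 0.0228). The first 4 did not overlap between the groups. Apcdd1 overlapped, and its call was lost with all 5 day-30 groups in a single fit (adjusted p = 0.212), with no low-count filter (0.0545) and without any of BA libraries 2, 4 and 5 and A libraries 2 and 3 (0.0522 to 0.0645). Znrf3 (-0.37, 95% confidence interval -0.72 to -0.01, adjusted p = 0.0866) and Dkk2 (-0.81, -1.58 to -0.04, adjusted p = 0.0803) were not called. Without A library 1 Znrf3 was called (adjusted p = 0.00904), and without BA library 3 Dkk2 was (0.028). Sp5 had a difference of 0.41 (-0.34 to 1.16). Epithelial markers summed to 11066 to 19032 CPM in A, and 9 of the 10 were higher in BA.

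The BA effect in tumours and at day 30 differed for 4 of the 9 genes tested, each with the higher value in tumours, beside 9.87% of 20637 genes with a positive and 6.46% with a negative difference. Dkk2 was at log2 3.36 in tumours and -0.76 at day 30 (difference 4.11, SE 0.72, adjusted p = 0.00141). Rnf43 was at 0.90 and -0.59 (difference 1.49, SE 0.18, adjusted p = 0.000127), and Tcf7 at 0.97 and -0.93 (difference 1.89, SE 0.38, adjusted p = 0.00327). These 3 genes lay below WT at day 30 and above WT in tumours by their estimates. For Tcf7 the 2 WT groups differed, with medians of 2.98 normalised CPM in WT proximal colon and 7.83 in WT at day 30. Its medians in BA were 5.06 normalised CPM in tumours and 3.90 at day 30, so the unlike WT levels are part of its difference. Znrf3 had a difference of 0.60 (adjusted p = 0.0484), a call that most fits with a library left out lost. Nkd1 had a difference of -0.04 (95% confidence interval -0.90 to 0.83) and Axin2 of 0.56 (-0.05 to 1.16). Apcdd1 had a difference of 1.32 (adjusted p = 0.0634) and was called with DESeq2 (0.0368) and without BA tumour 1 (0.0288), WT colon library 2 (0.0134) or BA library 1 of day 30 (0.0466).

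In the test of acute Apc loss against BA at day 30, 7 of the 10 genes passed the threshold, Notum among them though it was not tested at day 30. All had the higher value after Apc loss, beside 17.5% of 19255 genes with a positive and 19.1% with a negative difference. Tissue (small intestine or proximal colon), the time after induction and the Gm13394 split differ between the comparisons and are part of the difference. The WT levels differed as well, with Axin2 medians of 68.2 normalised CPM at day 4 and 18.7 at day 30. The difference was 2.99 for Axin2 (SE 0.24, adjusted p = 1.85e-09), 2.87 for Tcf7 (SE 0.26), 2.33 for Rnf43 (SE 0.20), 2.23 for Znrf3 (SE 0.28), 3.00 for Nkd1 (SE 0.41) and 1.23 for Apcdd1 (SE 0.39, adjusted p = 0.014). The 7 include Notum, which had 0 to 3 reads in BA and 1 to 6 in WT at day 30, was not tested there and entered the fit of the 4 groups only through its level in Apcfl/fl tissue, so that its fitted difference is not read as a difference between 2 measured effects. Sp5, which rose in both, had a difference of -0.45 (95% confidence interval -1.15 to 0.25, adjusted p = 0.317), which turned to 1.02 (adjusted p = 0.00534) with scaling by epithelial markers, where the median of all genes moved to 1.5.

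**Figure D5:**
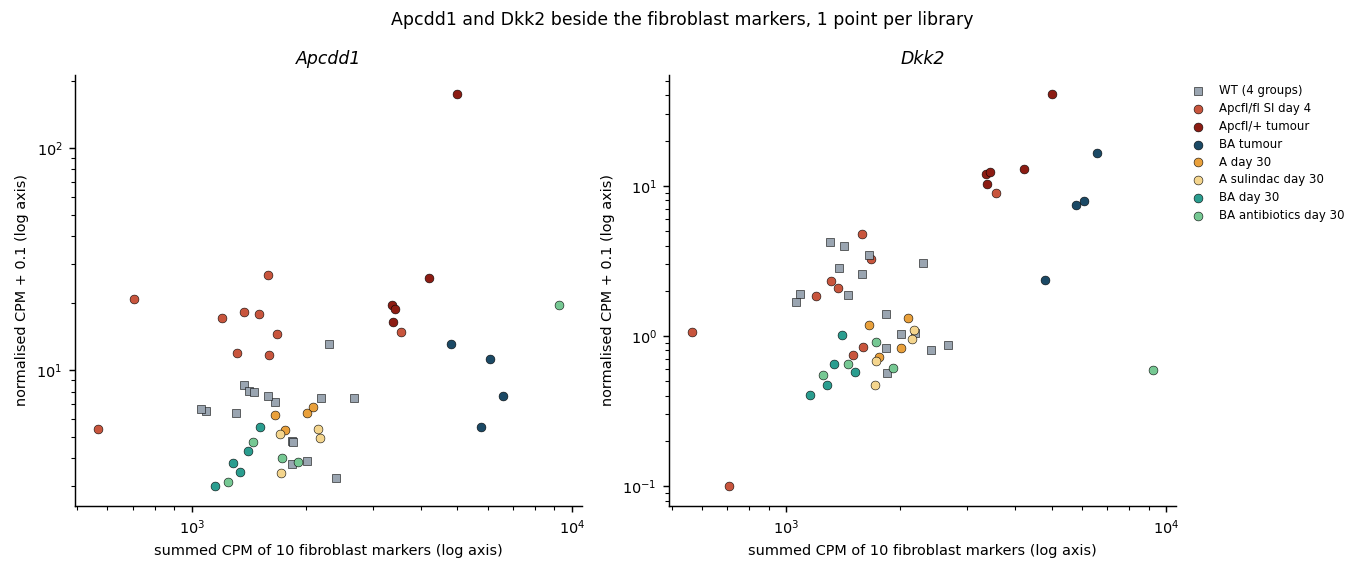
Normalised CPM plus 0.1 of Apcdd1 and Dkk2 (y axes, log scale) beside the summed CPM of 10 fibroblast markers (x axes, log scale), with 1 point per library and squares for WT. Apcfl/+ tumour 2 is highest for both genes (174 and 40.7 normalised CPM), and BA antibiotic library 3, with the highest marker sum, 9231 CPM, is high for Apcdd1 and not for Dkk2.

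Across the 11 groups, ordered by their medians, Apcfl/+ tumours ranked highest for Notum, Wif1, Dkk2, Apcdd1, Znrf3, Nkd1 and Sp5, and Apcfl/fl tissue for Rnf43, Axin2 and Tcf7. Of the 10 pairs of neighbours in this order, the ranges of the libraries were separate in 4 for Axin2, 3 each for Notum, Rnf43 and Sp5, 2 each for Znrf3 and Tcf7, 1 each for Nkd1 and Wif1 and 0 for Dkk2 and Apcdd1. The same counts over all genes are not given, so these are not read as particular to the members. The order also mixes tissues, times and group sizes. BA colon at day 30, with or without antibiotics, held the lowest places for Axin2, Rnf43, Znrf3 and Dkk2. WT small intestine was lowest for Nkd1, WT proximal colon for Tcf7 and WT colon at day 30 for Sp5.

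Over the 53 libraries, each centred on its own WT group, the genes with the log2 levels most like those of Axin2 were Fam171a1 (Pearson's r = 0.945), Ccdc3 (0.923), Cnn3 (0.920), Tnfrsf19 (0.919) and Gars (0.917), out of 16637 genes. Those most like Notum were Bmp7 (0.938), Rnf149 (0.930), Fxyd3 (0.930), Prr18 (0.929) and Tspan12 (0.927). Among the members themselves r was highest between Rnf43 and Tcf7 (0.956), Notum and Nkd1 (0.926) and Rnf43 and Znrf3 (0.914), and lowest between Axin2 and Dkk2 (-0.02). The libraries fall into 11 groups, so these values mostly describe differences between groups.

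The other genes of the pathway are given as counts called, to be read beside the shares of all genes called in each comparison, given above. Of 14 other Wnt target genes, 13 rose and 0 fell after acute Apc loss and 13 rose and 1 fell in Apc tumours, with medians of 2.24 and 1.89 on the log2 scale, whereas 6 rose and 2 fell in BA tumours and, of 13 tested, 6 rose and 4 fell in BA at day 30. Lgr5, a receptor for R-spondins and a crypt stem cell marker, rose by log2 2.25 after acute Apc loss and 2.41 in Apc tumours, fell by 0.72 in BA at day 30 and by 0.96 with antibiotics, and was at -0.46 in BA tumours (adjusted p = 0.45). Krt23 (3.32) and Tnfrsf19 (3.27) led the rises after acute Apc loss. In BA tumours Ascl2, a stem cell transcription factor, fell by 2.60 and Tnfrsf19 by 2.09, while Mmp7, a matrix metalloproteinase, rose by 4.93. At day 30 Krt23 rose by 1.94 and Rassf10 fell by 1.97, and Rassf10 fell by 1.27 with antibiotics.

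Among ligands and R-spondins, 4 rose and 4 fell of 10 tested after acute Apc loss, with Wnt4 at -2.00 and Wnt6 at -1.51. In Apc tumours 6 rose and 2 fell of 12, with Wnt10a at 5.61, Wnt7b at 5.30 and Wnt4 at -1.81. In BA tumours 3 rose and 0 fell of 12, among them Wnt7b, at 3.25 to 6.49 normalised CPM against 0 to 0.0588 in WT. In BA at day 30 0 rose and 6 fell of 9, and with antibiotics 1 rose and 0 fell of 10. Of the receptors, 10 rose and 3 fell of 18 after acute Apc loss, 12 rose and 1 fell of 19 in Apc tumours, 3 rose and 1 fell of 19 in BA tumours, 6 rose and 8 fell of 18 in BA at day 30, with Fzd3 at -2.40, and 3 rose and 5 fell of 19 with antibiotics, with Fzd3 at -1.54 and Lrp5 at 1.24.

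Of 17 transducers and destruction complex genes, 4 rose and 3 fell after acute Apc loss, 8 rose and 4 fell in Apc tumours, 1 rose and 0 fell in BA tumours, 9 rose and 4 fell in BA at day 30 and 6 rose and 2 fell with antibiotics. Ctnnb1, which encodes β-catenin, rose by 1.08 in Apc tumours, by 0.74 in BA at day 30 and by 0.75 with antibiotics. Axin1 rose by 0.26 after acute Apc loss and by 0.34 in Apc tumours. Of TCF and LEF factors and cofactors other than Tcf7, 2 rose and 6 fell of 12 after acute Apc loss, 4 rose and 2 fell of 12 in Apc tumours, 0 of 12 changed in BA tumours, 3 rose and 5 fell of 12 in BA at day 30 and 3 rose and 3 fell of 11 with antibiotics. Lef1 rose by 2.69 after acute Apc loss and by 2.58 in Apc tumours. Tcf7l2 fell by 0.39 and by 1.15 in the same comparisons and rose by 0.61 in BA at day 30 and by 0.66 with antibiotics. Tcf7l1 fell by 1.00 and by 1.02 in these last. Tle1, a corepressor, rose by 1.30 with antibiotics.

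Of Wnt inhibitors outside the set, 1 rose and 4 fell of 12 after acute Apc loss, 8 rose and 2 fell of 13 in Apc tumours, with Sfrp5 at -1.64, 4 rose and 0 fell of 14 in BA tumours, 1 rose and 10 fell of 14 in BA at day 30, and 1 rose and 0 fell of 14 with antibiotics. In BA at day 30 the median log2 fold change of these inhibitors was -0.98, Kremen2 was the gene that rose (1.39), and 29.3% of all genes, 7 of 10 fibroblast markers and 6 of 8 smooth muscle markers were lower as well. The part of these cells in the counts of the list was not tested. In A colon with and without sulindac 0 genes of these 6 lists were called against WT.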

How the data were processed

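RNA of whole tissue was sequenced on libraries made by a method adapted from the TruSeq RNA LT kit, with paired 36-base reads. The authors deposited raw counts of reads per gene on GRCm38 with no normalization. The submitters' processing notes name FastQC 0.11.8, Trim Galore 0.6.4, HISAT2 2.1.0 and featureCounts 1.6.4, and the strand setting is not given in the sources used here. Of 55421 identifiers, 55240 were paired with a symbol and 181 were not, and 0 columns of other samples were present. Groups were taken from the labels.

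The 2 groups of each comparison were fitted alone in edgeR 4.0.16 (R 4.3.3) by the quasi-likelihood test with TMM scaling, a filter on low counts (filterByExpr) and Benjamini-Hochberg adjustment over all genes tested. Calls have an adjusted p under 0.05, two-sided. Overlap of ranges between groups is described for single genes, and its share over all genes is not given. Differences between effects were tested as an interaction in a fit of all 4 groups. The scripts were tested on simulated data. The genes and the lists of other Wnt genes and cell type markers were chosen with earlier results of these data known. Other Wnt genes were named by a fixed rule, 7 core genes plus those of largest change among the called genes of the lists. Alternatives were RLE scaling, scaling by epithelial markers, no filter, DESeq2 1.42.0, limma 3.58.1 with voom, all 5 day-30 groups in a single fit, a replicate block, terms for Gm13394 and Ddx3y, and 172 fits that left out a library, those of the differences being chosen after seeing the data. Detection floors of 3 counts and read depths cover counting error only. Adjusted p-values that DESeq2 gave as missing were left out. Promoters are those of RefSeq, matched by symbol.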

Additional observations from a re-analysis of the deposited data

Results flagged for a closer look

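In 10 of the 90 combinations of gene and group that were searched, a single library lay far from the others of its group, a gap that chance gives in about 1 in 20 groups. Apcfl/+ tumour 2 was high for Apcdd1 (174.1 normalised CPM), Axin2 (289.6) and Dkk2 (40.74), and had the highest fibroblast marker sum of its group. BA tumour 2 was high for Axin2 (38.98) and Sp5 (15.93). Among BA mice on antibiotics, library 3 was high for Apcdd1 (19.59), library 4 for Dkk2 (0.8067), and library 1 was low for Nkd1 (7.927). Apcfl/fl library 5 was high for Dkk2 (8.881), with fibroblast markers at 3559 CPM against at most 1673 in the others, and WT library 5 of day 4 was high for Apcdd1 (13.03).

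In 23 cases a test of the difference between the effects in 2 comparisons passed the threshold, among them a value of Notum that is not read as such a difference. Effects in Apc tumours exceeded those in BA tumours for Axin2 (1.96 on the log2 scale), Notum (7.96), Nkd1 (5.92), Rnf43 (0.89), Znrf3 (2.06) and Wif1 (7.25). They exceeded those of acute Apc loss for Notum (4.36), Nkd1 (2.82), Sp5 (1.63), Wif1 (7.94), Dkk2 (2.28) and Apcdd1 (2.02). Effects in BA tumours exceeded those at day 30 for Rnf43 (1.49), Znrf3 (0.60), Dkk2 (4.11) and Tcf7 (1.89). Effects of acute Apc loss exceeded those in BA at day 30 for Axin2 (2.99), Nkd1 (3.00), Rnf43 (2.33), Znrf3 (2.23), Apcdd1 (1.23) and Tcf7 (2.87). The fitted value of Notum there (5.46) passed the threshold too, but Notum was too low to be tested in BA at day 30 and the value is not read as a difference between 2 effects.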

How the results depend on the processing

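Of 2488 values of the 10 genes under alternatives, 2296 kept their direction and their side of the threshold, 36 passed it newly, 70 no longer did, 85 changed sign or came to 0 without being called, and 1 changed sign and was called. In BA tumours the count of genes called higher or lower, 2, was 1 with scaling by epithelial markers, 1 with a replicate block, 0 with a term for Ddx3y and 0 to 4 when a library was left out. For A with sulindac the count of 0 was 1 with DESeq2. For antibiotics in BA the count of 0 was 3 with DESeq2 and 0 to 2 when a library was left out. For BA against A the count of 5 was 8 with scaling by epithelial markers, all lower, beside 13719 of all 17128 genes lower and 360 higher. The difference for Sp5 between acute Apc loss and BA at day 30 turned from -0.45 to 1.02 with that scaling, which moved the median of all genes there to 1.5. The median of all genes moved to 0.33 for acute Apc loss, -0.36 for Apc tumours, -1.04 for BA against A and -0.45 for Apc tumours against BA tumours. For Apc tumours against acute loss it moved to -0.71, and the split became 4 higher and 2 lower (Axin2 and Tcf7). Of all 22202 genes there, 679 were then higher and 7298 lower. Replicate numbers were not taken to pair the samples, since in no comparison did every same-numbered pair correlate above 0.1. The replicate block ended the calls for Rnf43 in BA tumours (log2 0.91, adjusted p = 0.116, against 0.90) and Apcdd1 in BA against A (-0.53, adjusted p = 0.0671, against -0.62). It also left out BA tumour 4 and BA library 5 of day 30, which had no partner of the same number. Without these libraries alone the calls were lost too (adjusted p = 0.05 and 0.0522). The cause of these changes was not tested. Depth limited Notum at day 30 and Wif1 and Dkk2 in the shallowest library.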
